A study of Mus musculus with 12 samples.

Results

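Brain endothelial genes were followed in RNA sequencing libraries of whole hippocampus from 12 males, 1 library per mouse. The 31 genes were chosen by name, as transcripts known to mark blood vessel endothelium, and their identifiers were looked up in a table of 56980 genes. No measured value entered that rule, but the list was drawn up when earlier results of these data were known. Those results included the calls of Flt1 at 3 months and Gpr182 at 9 months, so the members' differences are a description of these libraries. All 31 genes had counts in every library and were among the 19152 genes tested, so none was lost to the filter on low counts. Every mouse carried the AppNL-G-F knock-in, an allele of the mouse App gene with a humanised amyloid-β sequence and familial Alzheimer's disease mutations, and 6 of the mice were also Trem2 KO. The 4 groups of 3 mice were AppNL-G-F at 3 months, AppNL-G-F at 9 months, AppNL-G-F with Trem2 KO at 3 months and AppNL-G-F with Trem2 KO at 9 months, here called App-KI and Trem2-KO. No group without the knock-in was analysed here, so age and amyloid cannot be told apart, and the labels do not say how the Trem2 allele was made or whether litters were shared.

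Endothelial cells line every brain vessel and form the blood-brain barrier. Claudin and occludin junctions seal the gaps between them, transporters carry glucose, amino acids, lipids and hormones across them, and Wnt signals from the tissue keep that barrier state. VEGF and angiopoietin receptors govern their growth and quiescence, and blood flow acts on them through the factors KLF2 and KLF4, which raise the nitric oxide synthase gene Nos3. Endothelium does not express Trem2, which belongs to microglia in the brain. In whole tissue, fewer endothelial cells and less RNA per cell cannot be told apart.

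Total counts ran from 14627892 to 24594655 per library, where 3 counts correspond to 0.122 to 0.205 CPM (counts scaled to a common library total). Trem2 checked the labels: it stood at 9.19 ± 1.15 CPM (SD, n = 3) in App-KI libraries and 1.98 ± 0.165 CPM in Trem2-KO libraries at 3 months, and at 52.7 ± 2.90 and 3.74 ± 0.110 CPM at 9 months. Neighbouring tissue differed between libraries. The 12 choroid plexus markers, all detected in every library, summed to 66.7 CPM in App-KI 3-month replicate 1, 54.5 CPM in App-KI 9-month replicate 2 and 86.1 CPM in Trem2-KO 9-month replicate 3, against 465 to 3260 CPM in the other 9 libraries. The highest sums were 3260 and 2600 CPM in Trem2-KO 9-month replicates 1 and 2, followed by 1810 CPM in App-KI 3-month replicate 2. At 9 months all 12 had higher fitted values in Trem2-KO than in App-KI mice (median log2 fold change 1.09). None of these had an adjusted p under 0.05 in edgeR. The 12 meningeal and perivascular fibroblast markers, also detected everywhere, summed to 382 to 543 CPM in Trem2-KO mice at 9 months and to 240 to 329 CPM in the other groups, without overlap. The 12 mural cell markers, from pericytes and smooth muscle, summed to 332 to 410 CPM in Trem2-KO mice at 9 months and to 228 to 330 CPM elsewhere. The part of these cells, of the choroid plexus and of microglia in the endothelial differences was not tested. Members whose call changed without the 3 libraries low in choroid plexus are named, with the value of that fit where a call was gained.

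The endothelial transcripts differed widely in level. Expressed per kilobase of annotated exon and averaged over the 12 libraries, Itm2a, a membrane protein of brain endothelium, stood highest at 67.3 CPM per kb, followed by the glucose transporter gene Slc2a1 at 40.5 and the amino acid transporter gene Slc7a5 at 30.3. Cldn5, the main claudin of the barrier, stood at 14.9 CPM per kb. The endothelial cadherin gene Cdh5 stood at 1.59 and the ETS transcription factor gene Erg was lowest at 0.22 CPM per kb, from 7 to 28 reads per library. The spread over the 12 libraries, as the coefficient of variation of the CPM, was smallest for Slc7a5 (6.84%) and Egfl7 (7.36%) and widest for Vwf (49.5%) and Gpr182 (45.5%). Ly6a and Ly6c1, Abcb1a and the Slco1a4 cluster have close paralogs, so their counts are uncertain where reads map to several genes.

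The 9-month Trem2-KO libraries held the highest endothelial transcript levels of the study. Of the 31 genes, 24 had their highest group mean there (77.4%, against 25.7% of all tested genes), and 18 had their lowest mean in the 3-month Trem2-KO group (58.1%, against 27.4%). The mean log2(CPM + 0.5) over the 31 genes was 4.69, 4.71 and 4.73 in the 9-month Trem2-KO libraries, 4.33 to 4.48 in App-KI at 9 months, 4.42 to 4.50 in App-KI at 3 months and 4.30 to 4.38 in Trem2-KO at 3 months. The heat map of all members by library shows the last group of columns as the reddest for most genes and the 3-month Trem2-KO columns as blue.

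**Figure D1:**
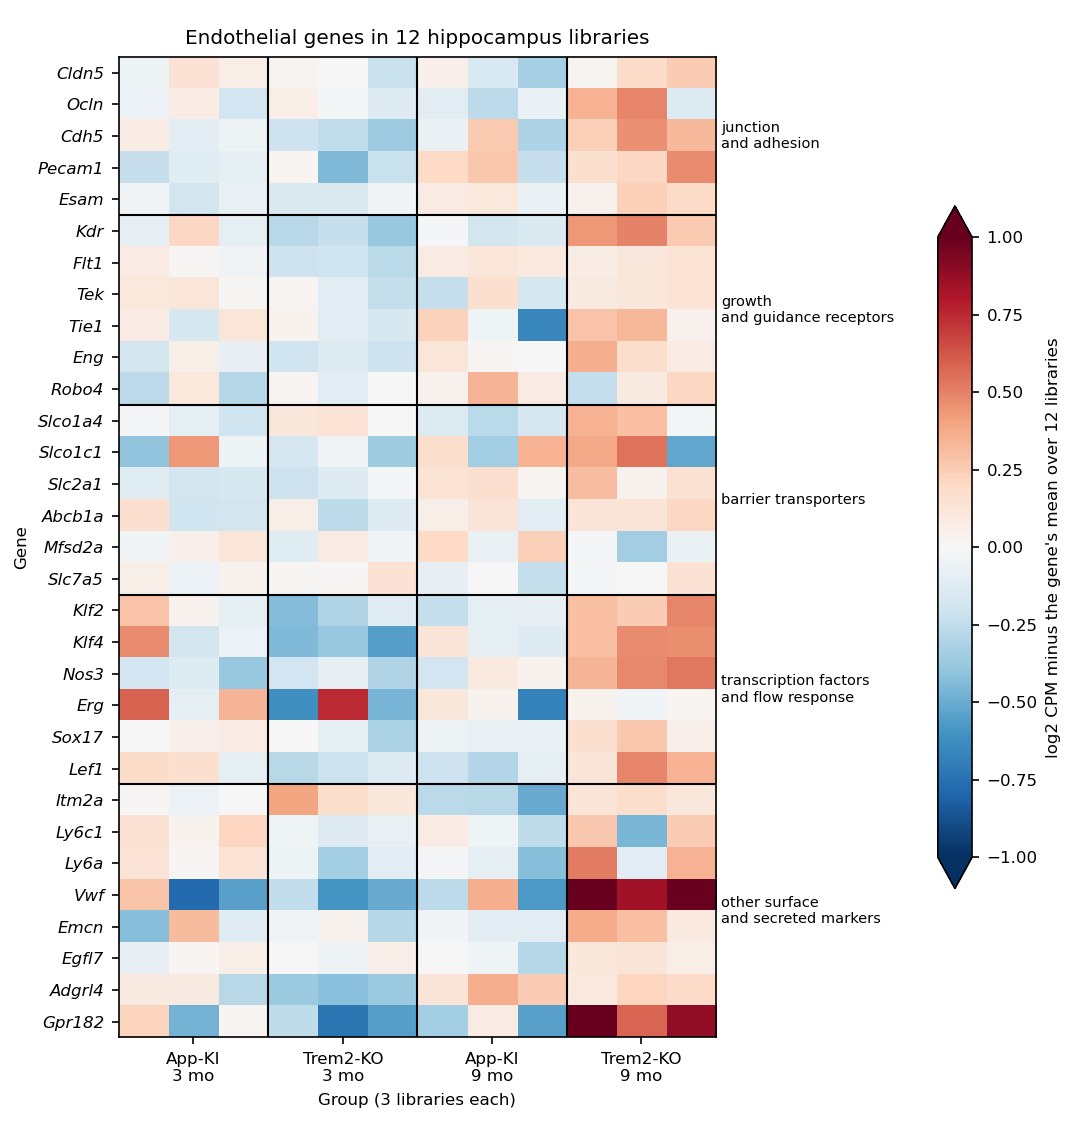
Heat map of the 31 endothelial genes (rows, by role) in 12 libraries (columns, 3 per group), with colour for log2 CPM minus the gene's mean over the libraries, cut at 1 in each direction. Most rows are red in the 9-month Trem2-KO columns, and Vwf and Gpr182 show the deepest red there.

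A gene was called when its adjusted p in edgeR's quasi-likelihood test, corrected over all tested genes, was under 0.05. Groups of 3 also separate without overlap for many genes. Over all tested genes, Trem2-KO lay wholly above App-KI for 8.65% and below for 8.94% at 3 months. At 9 months these shares were 8.28% and 9.04%. From 3 to 9 months 13.5% lay above and 11.9% below in Trem2-KO mice, and 11.2% and 11.5% in App-KI mice. For comparisons between genotypes, rose and fell mean higher and lower in Trem2-KO than in App-KI mice of the same age. Between genotypes at 9 months 7 of the 31 genes rose in Trem2-KO mice and none fell, where 2.08% of all tested genes were called in either direction. Their median log2 fold change was 0.23 against 0.007 for all tested genes, and 28 of 31 values were positive. At 3 months 1 of the 31 fell and none rose in Trem2-KO mice (0.59% of all tested genes were called), with a median of -0.12 and 23 of 31 values negative. From 3 to 9 months 13 rose and none fell in Trem2-KO mice, where 8.70% of all genes were called, with a median of 0.31. In App-KI mice 1 rose and 1 fell over the same months (6.66% called), with a median of -0.09. The interaction, which asks whether the genotype difference changed with age, was called positive for 4 genes and negative for none, where 0.266% of all genes were called, with a median of 0.37 and 29 of 31 values positive. The 9-month genotype comparison, the age comparison in Trem2-KO mice and the interaction share the 9-month Trem2-KO libraries, so they are not separate evidence.

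These counts moved when single libraries were left out. The 3-month genotype count was 0 without App-KI 3-month replicate 1 or 2, App-KI 9-month replicate 1 or 2, any of the 3 Trem2-KO 3-month libraries, Trem2-KO 9-month replicate 2 or the 3 libraries low in choroid plexus, and 2 without Trem2-KO 9-month replicate 1. Without App-KI 9-month replicate 1 the 9-month genotype count was 4. The interaction count was 1 without App-KI 9-month replicate 1 or Trem2-KO 3-month replicate 2, and 2 without App-KI 9-month replicate 3 or Trem2-KO 3-month replicate 1 or 3. The age count in App-KI mice was 1 without App-KI 3-month replicate 2 or 3, 9-month replicate 1 or 2, or the 3 libraries low in choroid plexus. The age count in Trem2-KO mice stayed between 10 and 13 over all 12 omissions.

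**Figure D2:**
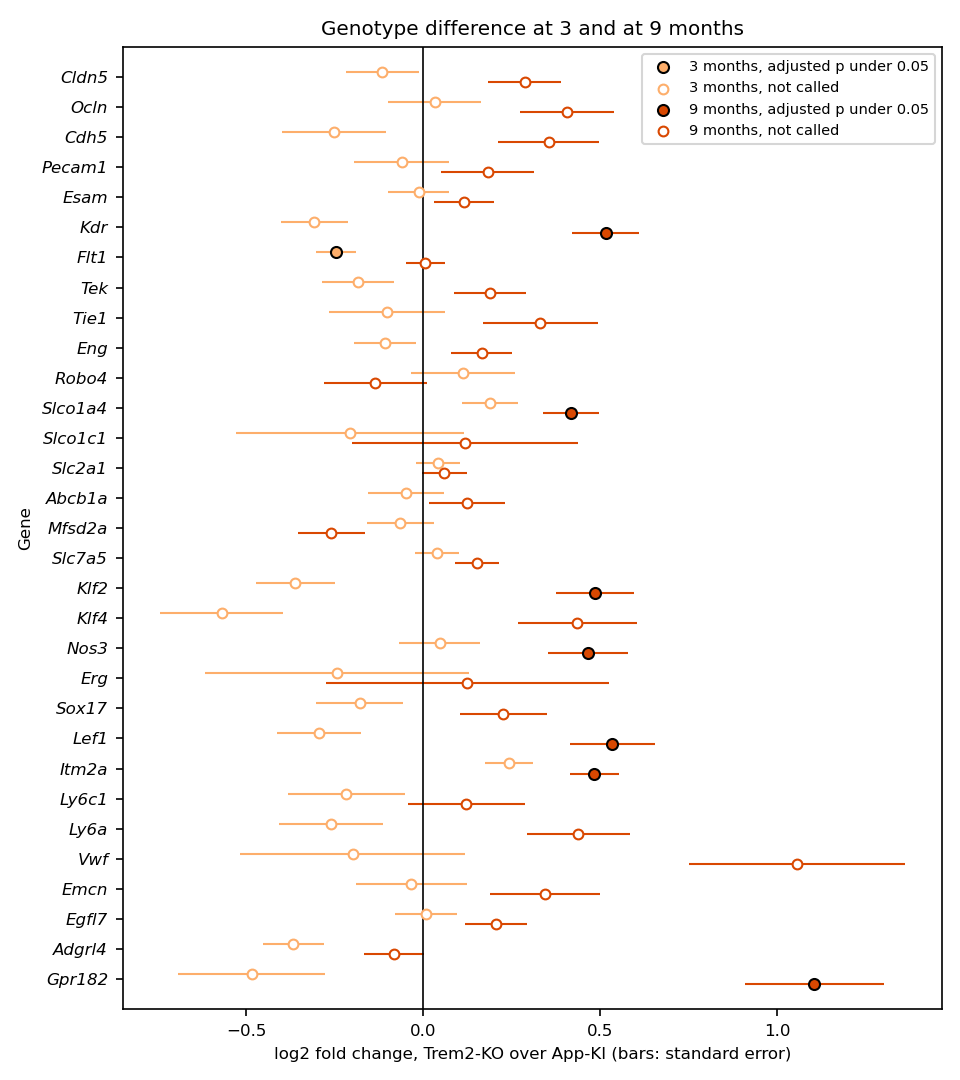
Log2 fold change of Trem2-KO over App-KI (x axis) for each endothelial gene (y axis) at 3 and at 9 months, with bars for the standard error and filled points for an adjusted p under 0.05. At 9 months the 7 filled points all lie to the right of 0, and at 3 months the single filled point, Flt1, lies to the left.

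Of the 5 junction and adhesion genes, none was called between genotypes at 9 months, where all 5 values were positive with a median of 0.29. In that comparison 3 of the 5 had an unadjusted p under 0.05, as did 13.6% of all tested genes. DESeq2 called 1 of the 5, Ocln. Cdh5, the cadherin of endothelial contacts, stood at 6.93, 6.11 and 6.34 CPM in the App-KI mice and 5.69, 5.54 and 5.11 CPM in Trem2-KO mice at 3 months. At 9 months it stood at 6.28, 7.88 and 5.31 CPM in the App-KI mice and 7.77, 9.01 and 8.22 CPM in Trem2-KO mice. The 3-month Trem2-KO libraries lay below all others of that age, and the 9-month genotypes overlapped. Within Trem2-KO mice Cdh5 rose by 0.62 ± 0.14 on the log2 scale from 3 to 9 months (adjusted p = 0.0102), a call lost without Trem2-KO 3-month replicate 3 or 9-month replicate 2. Pecam1, the adhesion molecule CD31, stood at 24.1, 17.5 and 20.4 CPM in Trem2-KO mice at 3 months and 26.5, 27.5 and 33.0 CPM at 9 months. That rise was 0.49 ± 0.13 (adjusted p = 0.0293), and it was lost without Trem2-KO 3-month replicate 2 or 3, 9-month replicate 2 or 3, or the 3 libraries low in choroid plexus. In App-KI mice Pecam1 stood at 20.3, 21.8 and 22.3 CPM at 3 months and 27.3, 28.7 and 20.3 CPM at 9 months, and the ages overlapped.

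The sealing proteins of the barrier were not called by edgeR with all 12 libraries. Ocln, the most abundant junction transcript by CPM, stood at 38.0, 41.8 and 34.7 CPM in the App-KI mice and 41.5, 39.3 and 36.2 CPM in Trem2-KO mice at 3 months. At 9 months Ocln stood at 36.8, 33.0 and 37.8 CPM in the App-KI mice and 50.6, 55.5 and 36.1 CPM in Trem2-KO mice. The low 9-month Trem2-KO value came from replicate 3, the library of that group low in choroid plexus markers. In the App-KI libraries low in those markers Ocln was 38.0 CPM at 3 months, neither highest nor lowest of its group, and 33.0 CPM at 9 months, the lowest. Choroid plexus epithelium also makes occludin, and its part in these values was not tested. Without the 3 libraries low in choroid plexus the 9-month difference of Ocln was 0.51 (adjusted p = 0.00524), against 0.41 ± 0.13 with all 12 (adjusted p = 0.176, and 2.86e-05 to 0.397 over all alternatives). The age difference of Ocln in Trem2-KO mice was 0.28 ± 0.13 (adjusted p = 0.224). That value was 0.44 and called without Trem2-KO 9-month replicate 3 (adjusted p = 0.00305) and without the 3 libraries low in choroid plexus (adjusted p = 0.00193), and 0.29 and called with no filter on low counts (adjusted p = 0.00585). Cldn5 had group means of 21.8 ± 1.47, 20.2 ± 1.85, 19.1 ± 2.51 and 23.4 ± 1.85 CPM in the App-KI mice and Trem2-KO mice at 3 months and in App-KI and Trem2-KO mice at 9 months. Esam, a junctional immunoglobulin protein, had group means from 21.6 to 25.9 CPM, and its age difference in Trem2-KO mice was called only without Trem2-KO 9-month replicate 1 (0.32, adjusted p = 0.0297).

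Among the 6 receptors of growth and guidance signals, Kdr, the main signalling receptor for VEGF-A, was called in 3 comparisons. It stood at 22.6, 27.6 and 22.5 CPM in the App-KI mice and 19.7, 20.4 and 18.4 CPM in Trem2-KO mice at 3 months. Its 9-month values were 23.7, 21.1 and 21.6 CPM in the App-KI mice and 32.3, 33.8 and 28.7 CPM in Trem2-KO mice. Trem2-KO libraries lay below App-KI at 3 months and above at 9 months, with no overlap at either age. The difference was -0.31 ± 0.10 at 3 months (adjusted p = 0.166), and at 9 months Kdr rose by 0.51 ± 0.09 in Trem2-KO mice (adjusted p = 0.00331). The interaction was 0.82 ± 0.13 (adjusted p = 0.00476) and the rise with age in Trem2-KO mice 0.70 ± 0.09 (adjusted p = 9.17e-05). These 3 calls were kept without each of the 12 libraries in turn.

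Flt1, a VEGF receptor that also acts as a decoy for its ligand, stood at 61.4, 58.5 and 56.6 CPM in the App-KI mice and 50.2, 50.6 and 48.0 CPM in Trem2-KO mice at 3 months. By 9 months the values were 61.5, 63.0 and 62.1 CPM in the App-KI mice and 61.1, 62.6 and 63.7 CPM in Trem2-KO mice. The 3-month Trem2-KO libraries were the 3 lowest of all 12, and the other 9 lay between 56.6 and 63.7 CPM. Flt1 fell by 0.25 ± 0.06 in Trem2-KO mice at 3 months (adjusted p = 0.0454). That call was lost without 9 of the 12 libraries in turn, kept only without App-KI 9-month replicate 3 or Trem2-KO 9-month replicate 1 or 3, and reached an adjusted p of at most 0.253. It was also lost when only the groups compared were fitted and without the 3 libraries low in choroid plexus. From 3 to 9 months Flt1 rose by 0.33 ± 0.06 in Trem2-KO mice (adjusted p = 0.000772), without each of the 12 libraries too.

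Eng, the TGF-β co-receptor endoglin, stood at 22.8, 23.8 and 22.7 CPM in Trem2-KO mice at 3 months and 33.6, 29.6 and 27.7 CPM at 9 months. In App-KI mice it stood at 23.0, 27.2 and 24.7 CPM at 3 months and 28.5, 26.4 and 26.2 CPM at 9 months. The ages did not overlap in Trem2-KO mice and overlapped in App-KI mice. Eng rose by 0.39 ± 0.09 with age in Trem2-KO mice (adjusted p = 0.00689), and its interaction of 0.27 ± 0.12 was not called (adjusted p = 0.763). The angiopoietin receptor genes Tek and Tie1 were not called in any comparison, with 9-month genotype values of 0.19 ± 0.10 and 0.33 ± 0.16. Robo4, a guidance receptor that stabilises vessels, had the negative 9-month value of this group. It stood at 6.24, 8.05 and 6.15 CPM in the App-KI mice and 7.61, 6.95 and 7.47 CPM in Trem2-KO mice at 3 months, and at 7.70, 9.49 and 7.94 CPM in the App-KI mice and 6.35, 7.95 and 8.64 CPM in Trem2-KO mice at 9 months. Its groups overlapped throughout and its 9-month genotype value was -0.14 ± 0.14 (adjusted p = 0.742).

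Of the 6 transcription factors and flow-responsive genes, 3 rose in Trem2-KO mice at 9 months and 4 rose with age in Trem2-KO mice. Over all tested genes 2.08% and 8.70% were called in these comparisons, in either direction. Kdr, Klf2, Lef1 and Gpr182 were the 4 members with a called interaction. The 250 bases before the RefSeq start sites of the first 3 are shown because of that call, and shared regulation was not tested. RefSeq's table for GRCm38.p6 held a promoter for 22 of the 31 members and none for Gpr182. Some members have several start sites, so the 22 members gave 31 windows. None of these coordinates is of the build named for the counts. Capitals mark the ETS core GGAA on either strand, the letters that factors such as ERG and FLI1 bind, and the MEF2 core TAAATTTA, the kind of site through which flow acts on Klf2, chosen after the Klf2 sequence was read. The Kdr window lies at chr5:75978456-75978705 on the minus strand, the Klf2 window at chr8:72318812-72319061 on the plus strand and the Lef1 window, the first of 4 listed starts, at chr3:131110047-131110296 on the plus strand.
Kdr: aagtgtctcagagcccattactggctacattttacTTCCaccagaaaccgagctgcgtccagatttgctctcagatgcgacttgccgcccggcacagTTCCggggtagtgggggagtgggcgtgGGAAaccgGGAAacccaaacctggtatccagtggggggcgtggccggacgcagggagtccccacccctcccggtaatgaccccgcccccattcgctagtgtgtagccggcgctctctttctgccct
Klf2: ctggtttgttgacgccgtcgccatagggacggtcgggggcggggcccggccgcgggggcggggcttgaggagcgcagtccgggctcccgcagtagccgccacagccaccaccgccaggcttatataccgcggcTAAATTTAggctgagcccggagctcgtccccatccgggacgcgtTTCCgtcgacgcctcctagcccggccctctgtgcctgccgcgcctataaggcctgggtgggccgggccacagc
Lef1: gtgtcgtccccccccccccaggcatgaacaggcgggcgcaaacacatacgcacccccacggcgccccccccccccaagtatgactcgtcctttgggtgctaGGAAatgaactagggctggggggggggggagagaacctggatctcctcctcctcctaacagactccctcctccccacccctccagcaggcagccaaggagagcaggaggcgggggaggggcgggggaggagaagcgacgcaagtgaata
The windows held 4 ETS cores before Kdr, 1 before Klf2 and 1 before Lef1, where 93.4% of the 32851 promoters in the table hold at least 1 and the median is 3. The MEF2 core occurred before Klf2 and before 1 of 3 Erg starts, and in 0.502% of all promoters. Of the 31 windows of the 22 members, 28 held an ETS core (90.3%, against the 93.4% of all promoters). A KLF box, CACCC on either strand, was held by 22 (71.0%). Several starts of the same gene, such as the 4 of Lef1, count separately there, and their windows can overlap. The box occurred 1, 1 and 3 times in the windows shown for Kdr, Klf2 and Lef1, and in 52.0% of all promoters. These are matches of letters and were not tested as binding sites.

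Klf2, the flow-induced factor of quiescent endothelium, stood at 21.7, 18.3 and 16.7 CPM in the App-KI mice and 13.2, 14.5 and 16.4 CPM in Trem2-KO mice at 3 months. At 9 months it stood at 15.1, 16.8 and 16.9 CPM in the App-KI mice and 22, 21.3 and 25.1 CPM in Trem2-KO mice. As for Kdr, the genotypes did not overlap at either age and changed order between them. Klf2 rose by 0.49 ± 0.11 in Trem2-KO mice at 9 months (adjusted p = 0.0213), a call lost without any of the 3 App-KI 9-month libraries, Trem2-KO 9-month replicate 3 or the 3 libraries low in choroid plexus. Its interaction was 0.85 ± 0.16 (adjusted p = 0.0149), lost without App-KI 9-month replicate 1, Trem2-KO 3-month replicate 1 or 2, or the 3 libraries low in choroid plexus. The rise of 0.63 ± 0.11 with age in Trem2-KO mice (adjusted p = 0.00113) was kept in all of these.

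Klf4, its close relative, stood at 6.56, 4.17 and 4.54 CPM in the App-KI mice and 3.49, 3.65 and 3.23 CPM in Trem2-KO mice at 3 months. Its 9-month values were 5.17, 4.45 and 4.33 CPM in the App-KI mice and 5.82, 6.56 and 6.52 CPM in Trem2-KO mice. The order of the genotypes again changed without overlap, with values of -0.57 ± 0.17 and 0.44 ± 0.17 that were not called (adjusted p = 0.163 and 0.230). The interaction of 1.0 ± 0.24 was not called either (adjusted p = 0.122), though it was with no filter on low counts (adjusted p = 0.0141). With age Klf4 rose by 0.87 ± 0.17 in Trem2-KO mice (adjusted p = 0.00319). Nos3, the endothelial nitric oxide synthase, stood at 10.4, 10.8 and 9.12 CPM in the App-KI mice and 10.4, 11.2 and 9.64 CPM in Trem2-KO mice at 3 months, where the genotypes overlapped. By 9 months the values were 10.4, 12.7 and 12.2 CPM in the App-KI mice and 15, 16.6 and 17.1 CPM in Trem2-KO mice, without overlap. That rise was 0.47 ± 0.11 (adjusted p = 0.0315). The call did not survive omission of App-KI 9-month replicate 1 or 3, Trem2-KO 9-month replicate 2 or 3, the 3 libraries low in choroid plexus, or the libraries of the other 2 groups. The rise of Nos3 with age in Trem2-KO mice was 0.64 ± 0.11 (adjusted p = 0.00118).

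Lef1, a transcription factor at the end of the Wnt pathway that maintains the barrier, stood at 13.0, 12.8 and 10.7 CPM in the App-KI mice and 9.46, 9.89 and 10.5 CPM in Trem2-KO mice at 3 months. At 9 months it stood at 9.91, 9.33 and 10.7 CPM in the App-KI mice and 12.5, 16.1 and 14.6 CPM in Trem2-KO mice, again in the opposite order and without overlap. It rose by 0.53 ± 0.12 in Trem2-KO mice at 9 months (adjusted p = 0.0193), lost without App-KI 9-month replicate 1 or 2, Trem2-KO 9-month replicate 2 or the 3 libraries low in choroid plexus. The interaction of 0.83 ± 0.17 (adjusted p = 0.0336) was kept only without App-KI 3-month replicate 3 or Trem2-KO 9-month replicate 1 among the 12 omissions, and it was lost without the 3 libraries low in choroid plexus (adjusted p = 0.278). With age Lef1 rose by 0.54 ± 0.12 in Trem2-KO mice (adjusted p = 0.00696), lost without Trem2-KO 9-month replicate 2. Sox17, an arterial and barrier factor, had 9-month means of 7.17 ± 0.0488 CPM in the App-KI mice and 8.38 ± 0.633 CPM in Trem2-KO mice, without overlap and without a call (0.23 ± 0.12, adjusted p = 0.442). Erg stood at 1.10, 0.685 and 0.927 CPM in the App-KI mice and 0.480, 1.23 and 0.530 CPM in Trem2-KO mice at 3 months, and at 0.791, 0.751 and 0.459 CPM in the App-KI mice and 0.750, 0.719 and 0.742 CPM in Trem2-KO mice at 9 months. At this depth its groups could not be separated.

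**Figure D3:**
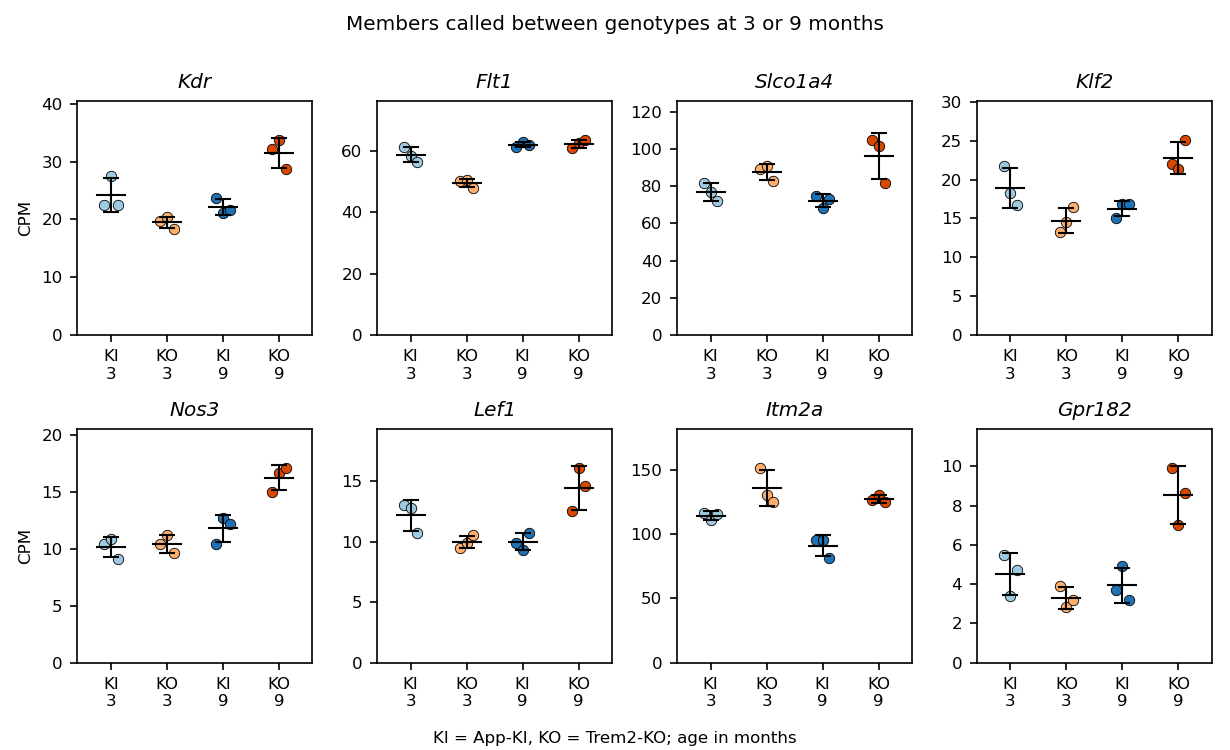
CPM (y axis, from 0) of the 8 members called between genotypes at 3 or 9 months, by group (x axis), with points for libraries and bars for mean and SD. In Kdr, Klf2 and Lef1 the Trem2-KO points lie below App-KI at 3 months and above at 9 months, and in Gpr182 they reach 7 to 9.93 CPM at 9 months.

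Of the 6 barrier transporters 1 was called between genotypes at 9 months (2.08% of all tested genes were called), and their median was 0.12. Slco1a4, an organic anion transporter of the luminal membrane, stood at 81.7, 77.0 and 72.0 CPM in the App-KI mice and 89.2, 90.9 and 82.9 CPM in Trem2-KO mice at 3 months. Its 9-month values were 75.0, 68.4 and 73.4 CPM in the App-KI mice and 105, 102 and 82.0 CPM in Trem2-KO mice. Trem2-KO libraries lay above App-KI at both ages, unlike Kdr or Klf2. The difference was 0.19 ± 0.08 at 3 months (adjusted p = 0.365). At 9 months Slco1a4 was higher by 0.42 ± 0.08 in Trem2-KO mice (adjusted p = 0.00746), a call kept without each library in turn. Its age difference in Trem2-KO mice was 0.14 ± 0.08 (adjusted p = 0.314), and it was 0.23 and called without Trem2-KO 9-month replicate 3 (adjusted p = 0.0283) or without the 3 libraries low in choroid plexus (adjusted p = 0.0179). Slc2a1, the glucose transporter GLUT1, rose with age in both genotypes. It stood at 130, 124 and 126 CPM at 3 months and 155, 158 and 144 CPM at 9 months in App-KI mice, and at 122, 129 and 139 CPM at 3 months and 175, 145 and 157 CPM at 9 months in Trem2-KO mice. The ages did not overlap in either genotype, with rises of 0.27 ± 0.06 (adjusted p = 0.0109) and 0.29 ± 0.06 (adjusted p = 0.00696) and an interaction of 0.02 ± 0.09. Omitting App-KI 3-month replicate 2 or 3, 9-month replicate 1 or 2, or the 3 libraries low in choroid plexus removed the App-KI call.

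The other transporters were not called in any comparison. Slco1c1, which carries thyroid hormone and is also made by choroid plexus epithelium, stood at 79.4, 141 and 101 CPM in App-KI at 3 months and 118, 82.3 and 133 CPM at 9 months. In Trem2-KO mice Slco1c1 stood at 93.3, 102 and 81.8 CPM at 3 months and 136, 152 and 72.8 CPM at 9 months. Its lowest value within 3 of the 4 groups came from the library of that group that was low in choroid plexus markers, and the part of choroid plexus was not tested. The 9-month genotype value of Slco1c1 was 0.12 ± 0.32. Abcb1a, the efflux pump P-glycoprotein and the least abundant transporter of the list, stood at 22.5, 17.4 and 17.6 CPM in the App-KI mice and 20.8, 16.7 and 18.3 CPM in Trem2-KO mice at 3 months. By 9 months the values were 20.8, 21.9 and 18.6 CPM in the App-KI mice and 21.9, 21.9 and 23.1 CPM in Trem2-KO mice. Those ranges met, and the value was 0.12 ± 0.11 (adjusted p = 0.67). Mfsd2a, the lipid transporter that limits transcytosis, had a negative 9-month value of -0.26 ± 0.10 (adjusted p = 0.199), and Slc7a5, the large neutral amino acid carrier, one of 0.15 ± 0.06 (adjusted p = 0.278).

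Of the 8 other surface and secreted markers, Itm2a and Gpr182 were called between genotypes at 9 months, where 2.08% of all tested genes were called. Itm2a stood at 117, 111 and 116 CPM in the App-KI mice and 152, 131 and 125 CPM in Trem2-KO mice at 3 months. At 9 months it stood at 95.9, 95.6 and 81.7 CPM in the App-KI mice and 127, 131 and 125 CPM in Trem2-KO mice. Trem2-KO libraries lay above App-KI at both ages, and the 9-month App-KI libraries were the 3 lowest of all. At 9 months Itm2a was higher by 0.48 ± 0.07 in Trem2-KO than in App-KI mice (adjusted p = 0.000333). With age it fell by 0.33 ± 0.07 in App-KI mice (adjusted p = 0.00456), and both calls were kept without each library in turn. Its value was 0.24 ± 0.07 at 3 months (adjusted p = 0.122) and -0.09 ± 0.07 with age in Trem2-KO mice (adjusted p = 0.456).

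Gpr182, an endothelial receptor that binds chemokines, stood at 5.46, 3.37 and 4.73 CPM in the App-KI mice and 3.91, 2.81 and 3.18 CPM in Trem2-KO mice at 3 months. Its 9-month values were 3.69, 4.93 and 3.21 CPM in the App-KI mice and 9.93, 7 and 8.64 CPM in Trem2-KO mice, from 49 to 225 reads per library over the study. The 9-month Trem2-KO libraries were above all 9 others. Gpr182 rose by 1.10 ± 0.20 in Trem2-KO mice at 9 months (adjusted p = 0.00272) and by 1.39 ± 0.20 with age in Trem2-KO mice (adjusted p = 0.00018), both kept without each library in turn. The interaction was 1.59 ± 0.28 (adjusted p = 0.0134), lost without App-KI 9-month replicate 1 or 3 or Trem2-KO 3-month replicate 2 or 3. Fibroblast markers were highest in the same 3 libraries, as given above, and their part in this rise was not tested.

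Vwf, the clotting factor made by endothelium of larger vessels, stood at 35.0, 16.7 and 19.7 CPM in the App-KI mice and 24.1, 18.9 and 20.2 CPM in Trem2-KO mice at 3 months. By 9 months the values were 23.9, 36.8 and 19.2 CPM in the App-KI mice and 58.5, 51.4 and 56.9 CPM in Trem2-KO mice. The high App-KI values came from the library of each age that was low in choroid plexus. The 9-month genotypes did not overlap, and the value of 1.05 ± 0.30 was not called (adjusted p = 0.162), while without the 3 libraries low in choroid plexus it was 1.34 (adjusted p = 5.08e-06). DESeq2 called it with all 12 (adjusted p = 0.0297). The interaction of Vwf was 1.25 ± 0.44 (adjusted p = 0.655), and 1.14 and called without those 3 libraries (adjusted p = 0.0061). With age Vwf rose by 1.41 ± 0.31 in Trem2-KO mice (adjusted p = 0.0283), a call lost when any 1 of the 6 Trem2-KO libraries was left out. Adgrl4, an adhesion receptor of sprouting vessels, stood at 48.3, 48.2 and 37.5 CPM in the App-KI mice and 35.1, 33.9 and 35.0 CPM in Trem2-KO mice at 3 months. At 9 months it stood at 49.5, 58.3 and 54.2 CPM in the App-KI mice and 48.6, 52.7 and 51.8 CPM in Trem2-KO mice. Like Flt1, it was lowest in Trem2-KO mice at 3 months and overlapped between genotypes at 9 months. The 3-month value was -0.37 ± 0.09 (adjusted p = 0.0535), called by DESeq2 (adjusted p = 0.0171) and in 4 other alternatives. With age Adgrl4 rose by 0.56 ± 0.09 in Trem2-KO mice (adjusted p = 0.000396). In App-KI mice its age difference was 0.27 ± 0.085 (adjusted p = 0.0611), and those ages did not overlap either. That value was called with no filter on low counts (adjusted p = 0.00872) and without App-KI 3-month replicate 1 (adjusted p = 0.0371). The interaction of Adgrl4 was 0.28 ± 0.12 (adjusted p = 0.718). Ly6a, Ly6c1, Emcn and Egfl7 were not called by edgeR with all 12 libraries, with 9-month genotype values of 0.44 ± 0.15, 0.12 ± 0.17, 0.34 ± 0.16 and 0.20 ± 0.09. Without Trem2-KO 9-month replicate 2 Ly6a was called at 9 months (0.60, adjusted p = 0.00409), with age in Trem2-KO mice (0.60, adjusted p = 0.00208) and for the interaction (0.86, adjusted p = 0.00727). Without the same library Ly6c1 was called with age in Trem2-KO mice (0.35 against 0.14 ± 0.17, adjusted p = 0.0222) and for the interaction (0.54 against 0.34 ± 0.23, adjusted p = 0.0402). Ly6a was also called in these 3 comparisons with no filter on low counts, and by DESeq2 with age in Trem2-KO mice (adjusted p = 0.0227).

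Other genes of the same pathways were read from 5 lists of 93 genes that share no gene with the 31. Between genotypes at 9 months 7 of the 93 rose and 2 fell (9.68% called, against 2.08% of all tested genes, median 0.17). With age in Trem2-KO mice 25 rose and 2 fell (29.0% against 8.70%, median 0.24). In App-KI mice 4 rose and 2 fell (median 0.05), and that share of 6.45% lay at the background of 6.66%. EdgeR called none between genotypes at 3 months or for the interaction. In these last comparisons 11 and 17 of the 93 had an unadjusted p under 0.05, where 11.2% and 6.04% of all genes did, and DESeq2 called 3 and 2. Without the 3 libraries low in choroid plexus 18 of the 93 were called between genotypes at 9 months, 16 higher and 2 lower, and without Trem2-KO 9-month replicate 3 alone 14. That count fell to 4 without App-KI 9-month replicate 3 and to 5 without Trem2-KO 9-month replicate 1. The age count in Trem2-KO mice fell from 27 to 16 without Trem2-KO 3-month replicate 2, to 12 without replicate 3 of that group and to 14 without Trem2-KO 9-month replicate 2. The age count in App-KI mice was 3 without App-KI 3-month replicate 3 or 9-month replicate 1 or 2, and 10 without Trem2-KO 9-month replicate 3.

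Among 17 partners of VEGF, angiopoietin and Notch signalling, none was called between genotypes at 9 months by edgeR or DESeq2, and the median was near 0 (-0.003). An unadjusted p under 0.05 was found for 5 of the 17, against 13.6% of all tested genes. At that age 0 of the 17 lay wholly above App-KI in Trem2-KO mice and 3 wholly below (8.28% and 9.04% of all tested genes). Those below were Vegfa, Apln and Dll4. Dll4 stood at 4.17, 4.4 and 3.87 CPM in the App-KI mice and 2.96, 2.73 and 2.49 CPM in Trem2-KO mice. Vegfa, the ligand of Kdr and Flt1, had a 9-month value of -0.17 ± 0.07 (adjusted p = 0.216), and Nrp1, the abundant VEGF co-receptor, one of -0.02 ± 0.06. With age in Trem2-KO mice 5 rose and 1 fell, where 8.70% of all tested genes were called. Without overlap 6 lay higher and 2 lower at 9 months (13.5% and 11.9% of all tested genes). Those lower were Vegfb and Hey1. Hey1 stood at 67.1, 63.5 and 64 CPM at 3 months and 53.1, 57.3 and 58.2 CPM at 9 months. Angpt2, the Tie receptor ligand of remodelling vessels, stood at 2.12, 1.45 and 1.88 CPM in Trem2-KO mice at 3 months and 5.52, 4.60 and 3.50 CPM at 9 months. It rose by 1.35 ± 0.23 (adjusted p = 0.0011), and in App-KI mice it stood at 2.45, 2.51 and 2.10 CPM at 3 months and 2.11, 3.59 and 2.23 CPM at 9 months. The receptor gene Flt4 rose by 0.62 ± 0.16, the endothelial Notch receptor gene Notch4 by 0.49 ± 0.13 and its ligand gene Jag1 by 0.44 ± 0.12. In App-KI mice Notch4 and Jag1 also lay wholly higher at 9 months, without a call, and Flt4 overlapped between ages. There Notch4 stood at 7.99, 7.54 and 7.71 CPM at 3 months and 9.49, 8.26 and 9.12 CPM at 9 months. Jag1 stood at 9.05, 8.96 and 9.27 CPM and at 9.86, 14.3 and 11 CPM in those mice. Angpt1, the stabilising ligand, rose with age in App-KI mice by 0.51 ± 0.12 (adjusted p = 0.012) and in Trem2-KO mice by 0.41 ± 0.12 (adjusted p = 0.0425).

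Of 20 genes of Wnt barrier signalling, Apcdd1, a Wnt-induced inhibitor found in brain endothelium, rose by 0.45 ± 0.07 in Trem2-KO mice at 9 months (adjusted p = 0.00103). It was the 1 gene of that list called by edgeR, where DESeq2 called 3 higher. It stood at 31.1, 29.7 and 29.1 CPM in the App-KI mice and 37.6, 41.4 and 43.7 CPM in Trem2-KO mice, without overlap. The abundant β-catenin gene Ctnnb1 had a value of -0.04 ± 0.04, and the Wnt target gene Axin2 one of 0.29 ± 0.12 (adjusted p = 0.29). With age in Trem2-KO mice the Wnt co-receptor genes Reck (0.55 ± 0.12), Adgra2 (0.55 ± 0.12) and Lrp5 (0.71 ± 0.18) rose together. In App-KI mice Reck and Adgra2 overlapped between ages. Lrp5 lay wholly higher at 9 months there too, without a call, at 5.42, 5.48 and 4.49 CPM and then 6.38, 5.58 and 6.82 CPM. In those mice Nkd1, a Wnt feedback inhibitor, fell by 0.37 ± 0.11.

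Of 17 further transporters, Slc22a8 and Abcc4 rose and Slco2b1 fell in Trem2-KO mice at 9 months. Slc22a8, the organic anion transporter OAT3, stood at 26.6, 29.6 and 21.6 CPM in the App-KI mice and 54.7, 38.8 and 52.8 CPM in Trem2-KO mice, a rise of 0.91 ± 0.14 (adjusted p = 0.00499). In the same libraries the fibroblast markers summed to 291, 297 and 247 CPM and to 522, 382 and 543 CPM. The part of fibroblasts in this rise was not tested. Abcc4, an efflux pump, rose by 0.40 ± 0.09 (adjusted p = 0.024). Slco2b1 stood at 35.4, 38.0 and 35.6 CPM in the App-KI mice and 24.3, 25.2 and 26.4 CPM in Trem2-KO mice and fell by 0.52 ± 0.08 (adjusted p = 0.000344). Microglia express it too, and the 10 microglial markers summed to 1100 to 1190 CPM in the App-KI mice and 673 to 711 CPM in Trem2-KO mice at that age. Of these markers 8 were called lower, where 2.08% of all tested genes were called in either direction. The part of microglia in the fall of Slco2b1 was not tested. The abundant Slc3a2, the partner subunit of Slc7a5, had a value of 0.08 ± 0.05. Of 15 junction and caveolar genes Cavin1, a caveolar coat protein that mural cells share, rose by 0.41 ± 0.11 at 9 months (adjusted p = 0.0456). With age in Trem2-KO mice 6 of the 15 rose, where 8.70% of all tested genes were called. Among them were Cavin1 (0.79 ± 0.11), Cavin2 (0.48 ± 0.10) and Ctnna1 (0.47 ± 0.10), while the abundant Cav2 (0.02 ± 0.06) was not called.

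Of 24 other pan-endothelial genes 3 rose and 1 fell in Trem2-KO mice at 9 months, where 2.08% of all tested genes were called. Clec14a, a lectin of endothelial contacts, stood at 3.74, 6.01 and 4.40 CPM in the App-KI mice and 8.69, 8.58 and 8.17 CPM in Trem2-KO mice, a rise of 0.85 ± 0.18 (adjusted p = 0.0131). Ramp2, the adrenomedullin receptor subunit, rose by 0.38 ± 0.09 and the transcription factor gene Sox13 by 0.56 ± 0.14. Cd34 fell by 0.39 ± 0.06 (adjusted p = 0.00115), against the direction of most of the list, from 72.3, 67.1 and 65.6 CPM in App-KI to 49.1, 51.6 and 56.4 CPM in Trem2-KO mice. The most abundant gene of this list, Bsg, was not called (0.26 ± 0.15). With age in Trem2-KO mice 7 of the 24 rose, where 8.70% of all tested genes were called. They were led by Podxl, a sialomucin of the lumen, at 0.61 ± 0.08 (adjusted p = 7.47e-05), and by Sox13 (0.67 ± 0.15), She (0.60 ± 0.14) and Clec14a (0.72 ± 0.18).

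Vessel type markers gave no call between genotypes at 9 months by edgeR: 0 of 10 arterial, 0 of 10 tested venous and adhesion and 0 of 3 tested lymphatic genes. The arterial and venous lists had medians of 0.43 and 0.20, with 3 genes each at an unadjusted p under 0.05. At that level were 0 lymphatic genes and 13.6% of all tested genes. DESeq2 called 0 arterial, 1 venous and 0 lymphatic genes. With age in Trem2-KO mice the arterial genes Fbln5 (1.10 ± 0.26) and Sema3g (0.81 ± 0.21) rose, as did Ephb4 (0.56 ± 0.13), Il1r1 (0.42 ± 0.08) and the adhesion molecule gene Vcam1 (0.60 ± 0.15) of the venous list. Of the lymphatic list Flt4 and Pdpn (0.67 ± 0.14) rose with age in Trem2-KO mice, and neither is made by lymphatic vessels alone. Icam1, an adhesion molecule of inflamed vessels that microglia also make, rose by 1.12 ± 0.18 with age in App-KI mice (adjusted p = 0.000309). The selectin genes Sele and Selp and the lymphatic genes Ccl21a and Mmrn1 had too few counts to test, at no more than 0.288 CPM in any library. Efnb2, the most abundant arterial gene, was not called (0.02 ± 0.12 at 9 months).

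Markers of other vessel-wall cells moved in the same comparisons. Of the 12 fibroblast markers 2 rose and none fell in Trem2-KO mice at 9 months (Slc6a20a and Aebp1, median of the list 1.08). In that comparison 10 of the 12 had an unadjusted p under 0.05, against 13.6% of all tested genes, and DESeq2 called 7 higher. In Trem2-KO mice 8 of them rose with age (median 1.03), where edgeR called 8.70% of all tested genes, and DESeq2 called 9 of them. Of the 12 mural markers Pdgfrb, the pericyte receptor, rose at 9 months between genotypes (0.33 ± 0.08, adjusted p = 0.0448, median of the list 0.38), and Pdgfrb and Vtn rose with age in Trem2-KO mice. The plot of marker lists by library sets these beside the endothelial members.

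**Figure D4:**
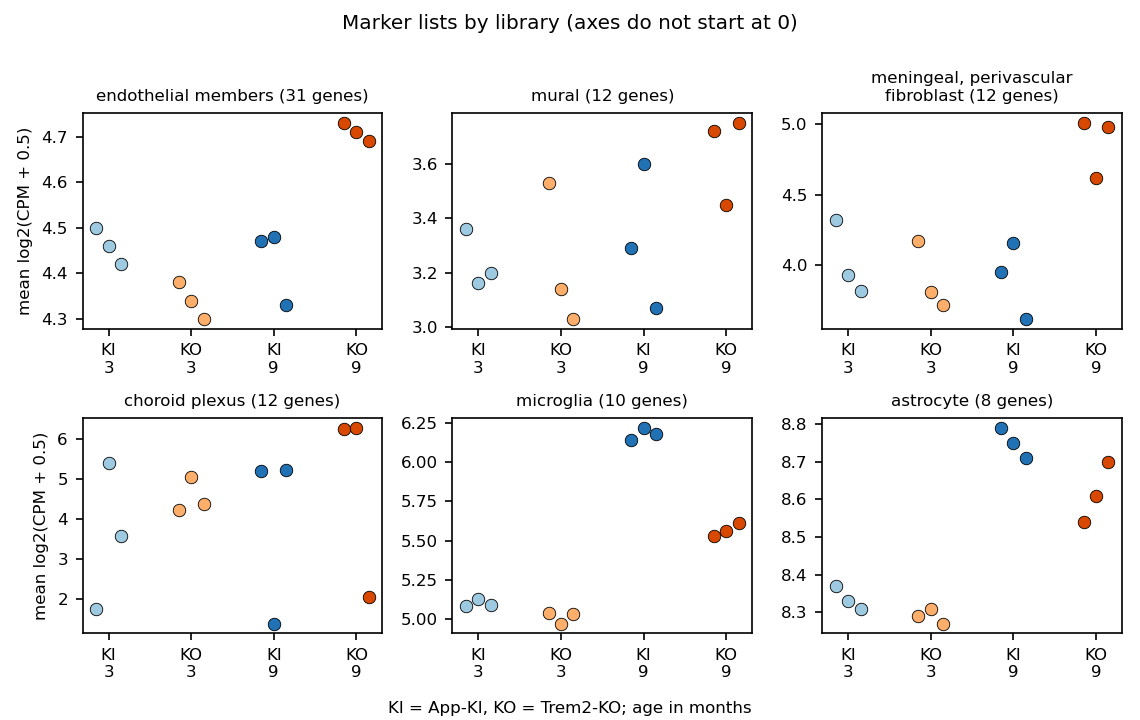
Mean log2(CPM + 0.5) of 6 marker lists (y axis, not from 0) in each library, by group (x axis). The 3 libraries of Trem2-KO at 9 months are highest for endothelial members (4.69 to 4.73) and fibroblasts (4.62 to 5.01), while choroid plexus markers vary widely within groups.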

How the data were processed

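RNA of 12 hippocampi was extracted with the Quick-RNA miniprep kit and made into libraries with the SMART-Seq mRNA LP kit, per the labels' protocols. The authors deposited 1 table of raw read counts per gene, for which GRCm39, STAR 2.7.10a, featureCounts 2.0.3 and DESeq2 1.36.0 are listed in the submitters' processing notes. No label states their settings, the annotation release or the use of strand, so reads of overlapping or near-identical genes may be shared.

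Counts were fitted with edgeR 4.0.16 in R 4.3.3 (TMM scaling, filterByExpr with a minimum count of 10 and a minimum total of 15, 1 term per group over 12 libraries with 8 residual degrees of freedom, robust quasi-likelihood F-test, Benjamini-Hochberg adjustment over 19152 genes). Printed log2 fold changes are not moderated, and their standard errors were derived from the F statistic. Values after ± are standard errors for log2 fold changes and SD (n = 3) for CPM. The labels give each library its own mouse, so p-values measure the spread between mice. The fit was also run on counts simulated from each gene's mean and spread in these libraries, with set differences added. Shared shifts of choroid plexus or fibroblast genes between libraries were not simulated, and the outcome is not reported here. Exon lengths came from GENCODE M21.

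The members and lists were chosen with earlier results of these data known. Per-library values are given for members called in at least 1 comparison and for the most and least abundant of each role group, and for other lists up to 4 called genes and the most abundant gene not called. Values per library for some of those listed genes were added after they were seen. Alternatives were RLE scaling, no filter, DESeq2 1.42.0, only the groups compared and leaving out each library. Leaving out the 3 libraries low in choroid plexus markers was chosen after seeing the data.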

Additional observations from a re-analysis of the deposited data

Results flagged for a closer look

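The genotype difference changed between 3 and 9 months, by the interaction term of edgeR's quasi-likelihood test, for 4 endothelial genes. The interaction (log2) was 0.82 for Kdr (adjusted p = 0.00476), 0.85 for Klf2 (adjusted p = 0.0149), 0.83 for Lef1 (adjusted p = 0.0336) and 1.59 for Gpr182 (adjusted p = 0.0134). In Kdr, Klf2 and Lef1 the 3 Trem2-KO libraries lay below the 3 App-KI libraries at 3 months and above them at 9 months. With each age taken alone, 8.94% of all tested genes lay below in this way at 3 months and 8.28% above at 9 months. The Kdr call was kept without each of the 12 libraries in turn and without the 3 libraries low in choroid plexus. The Klf2 call was lost in 3 of the 12 omissions and the Lef1 call in 10, and both were lost without those 3 libraries (adjusted p = 0.133 and 0.278). The Gpr182 call was lost in 4 of the 12 omissions. Groups of 3 are too small for a test of single outlying samples.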

How the results depend on the processing

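No paired analysis was possible because the labels give mouse identifiers and no replicate numbers shared between groups. Leaving out 1 library at a time gave 0 to 2 members called between genotypes at 3 months, 4 to 7 at 9 months, 1 to 3 with age in App-KI mice, 10 to 13 with age in Trem2-KO mice and 1 to 5 for the interaction. The median log2 fold change of the members then ran from -0.169 to -0.062 between genotypes at 3 months and from 0.291 to 0.385 with age in Trem2-KO mice. Without a filter on low counts 3 members were called between genotypes at 3 months and with DESeq2 2. Without the 3 libraries low in choroid plexus 0 were called there (median -0.167), 1 was called with age in App-KI mice, and the median with age in Trem2-KO mice was 0.385. The cause was not tested. RLE scaling gave the same numbers of member and pathway calls as TMM. Over the whole table, dropping the filter raised the calls between genotypes from 113 to 347 at 3 months and from 398 to 831 at 9 months, and the interaction from 51 to 187. DESeq2 gave 261 at 3 months and 102 for the interaction, and fitting only the groups compared gave 218 at 3 months. At 9 months the calls without the filter were 437 higher and 394 lower, against 131 and 267 with it. Leaving out 1 library lowered the table's calls to as few as 26 between genotypes at 3 months, 175 at 9 months, 788 with age in App-KI mice, 769 with age in Trem2-KO mice and 29 for the interaction, so the shares called over all genes move too. The depth limits Erg most, with 7 to 28 reads per library.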
